A study of Mus musculus with 35 samples.

Results

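Of 1231362 full 2 kb tiles of the mouse autosomes, 731 (0.0594%) were open in every line and on every day of an ATAC-seq series on the exit from naive pluripotency. A tile was counted as open in a group when its mean deposited log2 RPKM, the binary logarithm of reads scaled to tile length and library total, was at least 1.5, and these 731 tiles met that level in each of 12 groups. The same level was reached in at least 1 group by 18099 tiles, so the tiles open everywhere were 4.04% of them, and 17368 tiles were open in some groups and not in all. The counts of 18099 and 17368 depend on the higher scale of the libraries taken after 1 day, described below. The tiles were chosen by these deposited levels in all 12 groups, so levels and changes of the 731 tiles are given as a description, and what was not used in the choice is their position, their genes and the sequence of their promoters.

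The 35 libraries came from 4 lines of mouse embryonic stem cells grown in 2i and Lif (D0) and then differentiated as epiblast-like cells, sampled after 1 day (D1) and after 2 days (D2). The line TET_KO had lost all 3 Tet genes (Tet1, Tet2, Tet3), whose products oxidise methylated cytosine, and was set against its parental line TET_WT. The line DNMT_KO had lost the methyltransferase genes Dnmt1, Dnmt3a and Dnmt3b and was set against its own parental line DNMT_WT. Each group of line and day had 3 libraries, except TET_KO at D2, which had 2. Nothing in the labels says whether replicates were separate cultures or whether a knockout line was a single clone, so p-values measure the spread between these libraries, which may be technical. ATAC-seq uses the transposase Tn5, which inserts sequencing adapters preferentially into DNA that is free of nucleosomes.

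In mammalian cells the promoters of broadly used genes commonly lie in CpG islands, stretches rich in CG dinucleotides that usually stay free of DNA methylation and depleted of nucleosomes. Transcription factors of the Sp/Klf family bind GC boxes in such promoters, and the trimeric factor NF-Y binds CCAAT boxes. TATA boxes are more typical of promoters with tissue-restricted or inducible activity.

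Promoters of 6 open tiles and 1 closed tile show what these regions look like. Each is the 150 bases before the annotated gene start, 5′ to 3′ on the gene's strand, from RefSeq (GRCm38.p6), and capitals mark GGGCGG (the core of a GC box) or CCAAT on either strand. Pdcd10 (an adaptor of the striatin-interacting kinase complex, minus strand, chr3:75556853-75557002) and Mpc2 (a subunit of the mitochondrial pyruvate carrier, plus strand, chr1:165461110-165461259) lie in 2 of the most open promoter tiles, each between a divergent pair of genes. Ube2d3 (a ubiquitin-conjugating enzyme, plus strand, chr3:135438082-135438231) and Hnrnpu (a nuclear RNA-binding protein, minus strand, chr1:178337816-178337965) stand for gene classes described further on. Rtn4 (the reticulon that encodes Nogo, plus strand, chr11:29692748-29692897) was among the most even tiles, and Vegfc (a lymphatic growth factor, plus strand, chr8:54077382-54077531) had the largest called fall in TET_KO at D1. Alb (serum albumin of liver, plus strand, chr5:90460720-90460869) is a contrast from a tile open in no group, chosen as a liver gene.
Pdcd10: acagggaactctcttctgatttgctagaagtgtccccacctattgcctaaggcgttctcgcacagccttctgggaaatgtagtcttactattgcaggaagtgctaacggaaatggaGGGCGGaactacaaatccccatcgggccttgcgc
Mpc2: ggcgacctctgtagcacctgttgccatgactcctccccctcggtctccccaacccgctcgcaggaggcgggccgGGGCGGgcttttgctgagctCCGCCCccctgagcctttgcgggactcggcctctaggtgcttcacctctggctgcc
Ube2d3: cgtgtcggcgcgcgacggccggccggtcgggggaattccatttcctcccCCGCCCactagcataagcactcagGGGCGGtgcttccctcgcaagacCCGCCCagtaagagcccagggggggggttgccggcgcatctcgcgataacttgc
Hnrnpu: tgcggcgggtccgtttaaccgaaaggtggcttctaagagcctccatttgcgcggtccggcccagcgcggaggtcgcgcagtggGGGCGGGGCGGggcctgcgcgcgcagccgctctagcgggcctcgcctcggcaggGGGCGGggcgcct
Rtn4: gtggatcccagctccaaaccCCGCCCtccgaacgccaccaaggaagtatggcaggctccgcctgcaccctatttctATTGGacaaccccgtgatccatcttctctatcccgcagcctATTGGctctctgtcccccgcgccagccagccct
Vegfc: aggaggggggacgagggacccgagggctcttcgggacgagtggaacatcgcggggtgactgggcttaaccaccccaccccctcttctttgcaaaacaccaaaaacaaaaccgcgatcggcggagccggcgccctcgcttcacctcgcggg
Alb: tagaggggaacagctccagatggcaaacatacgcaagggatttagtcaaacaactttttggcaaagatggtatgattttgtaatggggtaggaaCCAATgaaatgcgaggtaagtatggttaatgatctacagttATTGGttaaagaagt
The Pdcd10 stretch held 1 such match, Mpc2 held 2, Ube2d3, Hnrnpu and Rtn4 each held 3, Vegfc held 0 and Alb held 2, both of them CCAAT boxes. The 150 bases of Hnrnpu were 75.3% G or C with 22 CG dinucleotides, and those of Alb were 38.7% G or C with 2. A match is a run of letters in this window and not a measured binding site.

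Depth and processing set the scale on which these levels are read. The libraries held 4172670 to 23686796 reads in tiles. Of the reads in autosomal tiles, 0.447 to 0.963% fell in the 731 tiles, and the median of the 731 tiles held 32 to 140 reads per library. At D0 and D2 the sum over tiles was 1.15 times the total behind the RPKM in every TET library and 1.02 times in every DNMT library. Deposited levels of the TET and DNMT families therefore rest on unlike totals. At D1 the sum was 2.03 to 2.05 times the total. Mitochondrial reads were present at D1 (5.62 to 46.8%) and at none of D0 and D2. Deposited levels at D1 therefore cannot be set against D0 or D2 without renormalising. The D1 groups had 8759 to 14600 tiles at or above 1.5, against 1453 to 4460 in the D0 and D2 groups. The tiles open in some groups, and shares set against them, thus depend on the scale of D1. With the D1 groups left out, the rule selected the same 731 tiles. A short list of cell state markers was checked at the tile of the gene start. Of 7 naive markers, Zfp42 (Rex1) and Tfcp2l1 were at or above 1.5 in all 4 lines at D0. Nanog was below it in TET_KO (0.90), Klf4 in TET_WT (1.41) and Tbx3 in DNMT_WT (1.25), and Esrrb (-0.40 to 0.22) and Dppa3 (0.31 to 0.88) were below it in all 4 lines. Start tiles of the listed fibroblast and primitive endoderm markers stayed below 1.5 in every D0 and D2 group. The start tile of Pou5f1, the pluripotency gene that encodes Oct4, was below 1.5 in all 12 groups. Of the other core markers, Sox2 reached 1.5 in TET_KO at D0 (1.503), in TET_WT at D2 (1.52) and in all 4 lines at D1. Sall4 reached it in TET_WT at D2 (1.54) and in all 4 lines at D1. Of the formative markers, only Fgf5 reached 1.5 at D0 or D2. At D2 it had 1.88 in TET_KO and 1.71 in TET_WT, against 0.15 in DNMT_KO and 0.42 in DNMT_WT.

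Tiles open in every group lay at gene starts. A gene start fell inside 653 of the 731 tiles (89.3%, 95% exact binomial interval 86.9 to 91.5%), against 52.5% of the tiles open in some groups and 3.56% of all autosomal tiles. Protein-coding starts were in 624 tiles (85.4%), against 47.8% of tiles open in some groups and 2.06% of all tiles. When a start within 1 kb of the tile was accepted, the count was 691 (94.5%). A further 51 tiles held no start but lay in a gene body, and 27 lay outside genes, 5 of them over a pseudogene. Over 10 kb from any start lay 20 tiles (2.74%), against 19.7% of tiles open in some groups and 72.1% of all tiles, and 2 tiles lay over 50 kb away. Genes without a strand in the annotation were counted at either end, and with strand-known genes alone the share with a start was 76.3% (558 tiles).

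**Figure D1:**
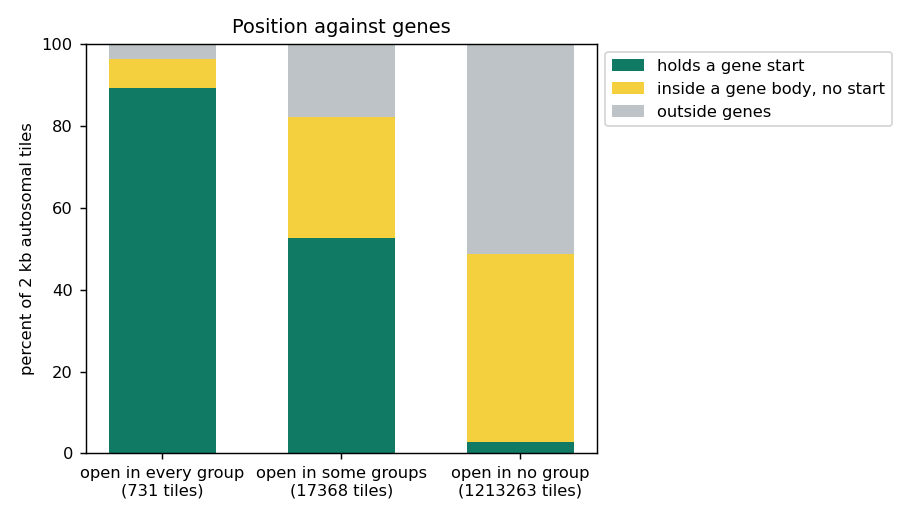
Share of 2 kb autosomal tiles that hold a gene start, lie in a gene body without one or lie outside genes, for tiles open in every group, in some groups and in no group. Gene starts were in 89.3% of tiles open in every group and 52.5% of tiles open in some groups.

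The open stretch was short. The median log2 RPKM over the 12 groups was 2.35 in the tile itself, -0.005 in the tile 2 kb to the left, 0.07 in the tile 2 kb to the right and -0.78 and -0.75 at 10 kb. Of the 731 tiles, 30 touched another tile of the set. Within the tile, 61.5% of 839 annotated starts with a strand lay in the middle 1 kb, against 52.7% of starts in tiles open in some groups and 50.2% of all starts. A 2 kb grid that cuts a promoter in 2 lowers the level of each piece, and this affects which promoters reached 1.5.

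Divergent gene pairs, whose starts face away from each other, were frequent. Among the 558 tiles with a strand-known start, 123 (22.04%) held a divergent pair with starts at most 1000 bp apart, against 12.7% of tiles open in some groups and 5.46% of all tiles with such a start. Both partners were protein-coding in 61 tiles (10.9%), against 6.90% and 2.42%. Examples were Dcaf6 and Mpc2 with 797 bp between the starts, Pdcd10 and Serpini1 with 641 bp, and Srgap2 and Fam72a with 542 bp. Hdlbp, an RNA-binding vigilin, and Septin2, a cytoskeletal GTPase, were 76 bp apart.

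Promoters in these tiles were CpG-rich. Over the 300 bases around the start, the median G and C content was 66% for 839 promoters in tiles open in every group, 62.7% for 9687 promoters in tiles open in some groups and 53% for all 31396 autosomal promoters. The ratio of observed to expected CG dinucleotides had a median of 0.85, against 0.80 in tiles open in some groups and 0.39 over all promoters. It reached 0.6, a common limit for CpG islands, in 90.3% of promoters in tiles open in every group, 79.0% of those in tiles open in some groups and 36.4% of all promoters. The gap to the promoters open in some groups was thus much smaller than the gap to all promoters.

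**Figure D2:**
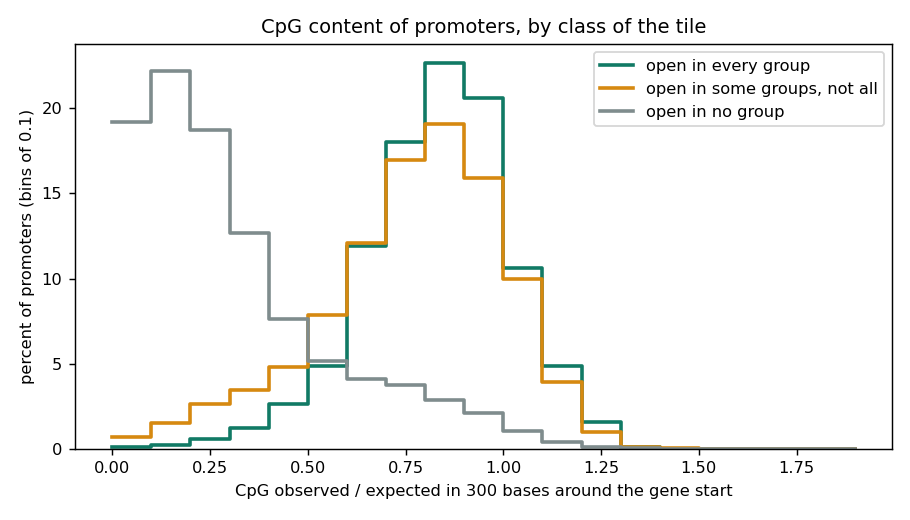
Distribution of the ratio of observed to expected CG dinucleotides in 300 bases around gene starts, as percent of promoters per bin of 0.1, by the class of the tile. Promoters in tiles open in every group (median 0.85) lie close to those open in some groups (0.80) and to the right of those open in no group (0.24).

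Short motifs were counted in the same 300 bases on both strands. GGGCGG was in 82.6% of promoters in tiles open in every group, against 69.0% in tiles open in some groups and 36.0% of all promoters. CCAAT was in 50.4%, against 38.4% and 37.3%. TATAAA, the TATA box, was in 3.93%, against 5.69% and 13.6%. AAGATGGC, the core bound by Yy1, was in 4.89%, against 4.54% and 2.75%, and TGACGTCA, the Creb site, was in 4.05%, against 3.38% and 1.83%. CCGGAAGT, an Ets site, was in 5.96%, against 8.33% and 3.95%, and the palindromic Nrf1 site was in 1.43%, against 2.28% and 0.968%. A part of the Ctcf site was in 2.98%, against 3.04% and 2.47%. The shares of the GC box and the CCAAT box were thus above those of the promoters open in some groups, while those of the Ets and Nrf1 sites and the TATA box were below them. GGGCGG contains CG, so its share moves with the CpG content above, and no test was made of these shares.

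Among protein-coding genes 712 of 20665 (3.45%) had their start in 1 of the 731 tiles, and among long non-coding RNA genes 130 of 12408 (1.05%). Several classes of basic cell function had a larger share, in small counts and with no test made of the difference. Of 26 cell cycle genes 5 (19.2%) had it: the replication helicase subunits Mcm5 and Mcm6, the G1 cyclins Ccne1 and Ccne2 and the kinase Cdk4. Their group means were at least 1.79, 1.59, 1.56, 1.55 and 1.53, in that order. Of 65 splicing factors and nuclear RNA-binding proteins 10 (15.4%) had it, among them Hnrnpf and Hnrnpu with lowest group means of 1.98 and 1.95. Initiation factors of translation and their regulators had 7 of 53 (13.2%), led by Eif5a, the cap-binding protein Eif4e and Eif4g2 at 1.97, 1.76 and 1.73. Chaperones had 9 of 73 (12.3%), led by Dnajb1, the constitutive Hsp70 Hspa8 and Dnajb4 at 2.05, 2.05 and 1.78. RNA polymerase subunits had 3 of 28 (10.7%), Polr3g, Polr1d and Polr2h, and ubiquitin conjugation genes had 4 of 42 (9.52%), led by Ube2d3 at 2.41. In these classes 74.0 to 100% of genes had a start in a tile open in at least 1 group, against 46.3% of all protein-coding genes.

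Other classes of basic cell function had shares nearer to that of all protein-coding genes, or none. Ribosomal protein genes had 3 of 81 (3.70%), among them Rpl7 and Rps19, although the starts of 92.6% of them were in tiles open in at least 1 group. Mitochondrial ribosomal proteins had 4 of 78 (5.13%), respiratory chain genes 5 of 93 (5.38%) and proteasome genes 0 of 47, with 74.5% of the last open in at least 1 group. Replication-dependent histone genes had 0 of 60, and 76.7% of them were open in at least 1 group. Zinc finger genes with a Zfp symbol had 12 of 388 (3.09%), led by Zfp78 at 2.39. An exception was the list of 13 control genes often used for normalisation, with a larger share in a small count. Of these 2 (15.4%), Gapdh (lowest group mean 1.74) and Eef1a1 (1.505), were in the set.

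Several gene families had no start in the set. Olfactory and vomeronasal receptor genes had 0 of 1456, keratin genes 0 of 109, Hox genes 0 of 39, lineage regulators 0 of 26 and transfer RNA genes 0 of 394. In tiles open in at least 1 group were 0.275%, 0%, 25.6%, 46.2% and 47.5% of them, in that order, against 46.3% of all protein-coding genes. The Hox and lineage lists are small, and their 0 was not tested against the 3.45% of all protein-coding genes. MicroRNA genes had 13 of 1090 (1.19%), led by Mir6236 with a lowest group mean of 2.63. Some shared a tile with a protein-coding start, as Mir1956 with Eif4e and Mir5627 with Dnajb9. Of the 19 tiles of the set with a small RNA gene, 4 held no protein-coding or long non-coding RNA start. Pluripotency genes were in the set in small counts. Of 19 naive genes 2 (10.5%) were, Klf5 and Klf2, of 9 core genes 1 (11.1%), Zfp281, and of 16 formative genes 2 (12.5%), Etv5 and Zic5, with no test made of these shares. Of 15 genes of the DNA methylation machinery Mbd3, a subunit of the NuRD complex, and Trim28, the corepressor of KRAB zinc finger proteins, were in it, at lowest group means of 1.98 and 1.68. None of the Tet and Dnmt genes was, and the level of a 2 kb tile does not check the knockouts. Of 12 genes of cohesin, Mediator and CTCF, the insulator factor Ctcf (1.65) and the cohesin subunit Stag1 (1.72) were in the set. No tile counted as a start tile of the endoderm gene Sox17 was in the set. A tile in a gene body, 1073 bp from a position counted as a start of Sox17, was in it, with group means of 1.64 to 3.06. That position may be the other end of the gene, since genes without a strand were counted at either end.

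The pluripotency genes in the set differed in how their levels lay across the days. Klf5 (chr14:99298001-99300000), a Krüppel-like factor of the naive network, had 1.81, 2.301 and 2.84 log2 RPKM in TET_KO at D0, against 2.22, 2.06 and 2.83 in TET_WT, and 1.81, 2.50 and 2.13 in DNMT_KO, against 2.38, 1.48 and 2.08 in DNMT_WT. At D2 it had 2.60 and 2.22 in TET_KO, against 1.98, 3.15 and 2.56 in TET_WT, and 2.03, 1.70 and 1.82 in DNMT_KO, against 1.89, 1.99 and 1.02 in DNMT_WT. Knockout and parental values overlapped in both families at D0 and D2. At D1 they did not overlap in the TET family, with 2.99, 2.89 and 2.75 in TET_KO, against 3.03, 3.53 and 3.53 in TET_WT, and overlapped in the other, with 3.26, 2.36 and 3.04 in DNMT_KO, against 2.73, 2.24 and 2.73 in DNMT_WT. Zic5 (chr14:122464001-122466000), a zinc finger gene of the formative state, had 1.46, 1.67 and 1.85 in TET_KO at D0, against 1.65, 1.94 and 2.37 in TET_WT, where the groups overlapped. At D1 it had 2.304, 2.37 and 2.63 in TET_KO, below all of 3.37, 3.52 and 3.23 in TET_WT. At D2 it had 1.72 and 1.87 in TET_KO, below all of 2.14, 3.18 and 2.70 in TET_WT. In the other family Zic5 had 1.94, 2.16 and 1.92 in DNMT_KO at D0, above all of 1.07, 1.88 and 1.88 in DNMT_WT. At D1 the lowest DNMT_KO value equalled the highest DNMT_WT value (2.43), and at D2 the groups of that family overlapped. Both genes are on chromosome 14, whose background density was higher in TET_WT than in the other lines. Limma called neither tile in any comparison, and both were picked out after their values were seen.

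Klf2 (chr8:72318001-72320000), a second Krüppel-like factor of the naive network, lay lower in TET_KO at 2 of the days. It had 2.15, 2.15 and 1.56 in TET_KO at D0, against 2.04, 2.22 and 2.47 in TET_WT, where the groups overlapped. At D1 it had 2.05, 2.28 and 1.42 in TET_KO, against 3.00, 3.49 and 2.73 in TET_WT, and at D2 it had 1.51 and 1.53, against 2.01, 2.52 and 2.70, without overlap. In the DNMT family, knockout and parental values of Klf2 overlapped at each day. Limma called the Klf2 tile in no comparison, and it was picked out after its values were seen. Klf2 is on chromosome 8, where members as a whole lay lower in TET_KO, as described below.

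The highest levels in the set were not at promoters of protein-coding genes. The tile chr6:3200001-3202000, 16885 bp from the start of LOC115490388, had the highest mean over the 12 groups, 3.93 log2 RPKM, and a lowest group mean of 3.37. At D0 it had 3.69, 4.03 and 4.42 in TET_KO, against 3.97, 4.02 and 3.82 in TET_WT, and 3.56, 3.58 and 4.01 in DNMT_KO, against 3.35, 3.51 and 3.24 in DNMT_WT. The tile of the non-coding gene Gm15564 (chr16:35980001-35982000) averaged 3.90, with a lowest group mean of 3.29, and chr17:36230001-36232000, 23673 bp from Rpp21, averaged 3.72, with a lowest of 3.27. The sources used here do not state how reads with several genomic matches were counted, so values of tiles that share sequence with near-identical copies are uncertain.

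Among the most open promoters were those of Pdcd10 and Serpini1, Opn3 (an opsin), Mpc2 and the Rosa26 locus. Pdcd10 and Serpini1 (a neuronal serpin) shared a tile (chr3:75556001-75558000) at a mean of 3.36, but its libraries spread widely. It had 2.46, 3.10 and 3.93 in TET_KO at D0, against 2.13, 2.04 and 3.74 in TET_WT, and 1.94, 3.73 and 3.84 in DNMT_KO, against 3.72, 3.30 and 3.14 in DNMT_WT. Among replicates its SD was 0.65, against a median of 0.39 over the 731 tiles. Dcaf6 (a ligase substrate receptor) and Mpc2 had a lowest group mean of 2.72. Gt(ROSA)26Sor (chr6:113076001-113078000), the Rosa26 locus used for transgenes, was picked out after its values were seen. It had 2.62, 3.18 and 3.24 in TET_KO at D0, against 2.86, 2.75 and 3.53 in TET_WT, and 2.19, 3.31 and 3.41 in DNMT_KO, against 3.41, 2.78 and 3.17 in DNMT_WT. Its groups overlapped in both families at D0, and its lowest group mean was 2.39.

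The 20 tiles over 10 kb from a start had lowest group means of 1.51 to 3.37, against a median of 1.70 over the set. The one farthest from a start, chr1:122356001-122358000, lay 150856 bp from Gm28590 at a lowest group mean of 2.07. Ranked by the lowest group mean, those after the chromosome 6 and 17 tiles were chr6:49236001-49238000, 21047 bp from Igf2bp3 (2.47), chr19:61266001-61268000, 37583 bp from Csf2ra (2.44), chr2:22744001-22746000, 28327 bp from Apbb1ip (2.21), and chr1:195240001-195242000, 63282 bp from Cr2 (2.07). In the chromosome 19 tile TET_WT at D0 had 3.31, 3.51 and 3.26, against 2.28, 2.61 and 2.43 in DNMT_WT, without overlap.

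Near the threshold lay, just inside, the histone demethylase gene Kdm3a with a lowest group mean of 1.50001, Hnrnpa0 with 1.50029 and Dnajb9 with 1.50029. Just outside lay a tile near 1700096K18Rik at 1.49861, the bromodomain gene Brd2 at 1.49923 and the divergent pair Safb and Safb2 at 1.49933. The group that set the lowest mean was DNMT_KO at D2 for 317 tiles (43.4%), TET_WT at D0 for 138 (18.9%) and DNMT_WT at D2 for 89 (12.2%). The unlike totals behind the RPKM of the TET and DNMT families may bear on which group was lowest, and this was not tested.

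Levels of the set moved with the library. The mean of the library medians was 2.23 ± 0.25 in TET_KO at D0 (SD, n = 3), against 2.01 ± 0.41 in TET_WT (n = 3), and 2.26 ± 0.45 in DNMT_KO (n = 3), against 2.20 ± 0.15 in DNMT_WT (n = 3). At D2 it was 2.20 ± 0.15 in TET_KO (n = 2), against 2.25 ± 0.52 in TET_WT (n = 3), and 1.87 ± 0.08 in DNMT_KO (n = 3), against 2.07 ± 0.17 in DNMT_WT (n = 3). At D1 it was 2.81 ± 0.12 in TET_KO, against 2.98 ± 0.19 in TET_WT, and 2.92 ± 0.26 in DNMT_KO, against 2.69 ± 0.39 in DNMT_WT (n = 3 each), on the higher scale of that day. Knockout and parental medians overlapped at every day in both families. The third replicate of TET_WT at D0 stood apart, with a median of 2.49 against 1.76 and 1.78 in the other two, and without it the rule selected 595 tiles.

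**Figure D3:**
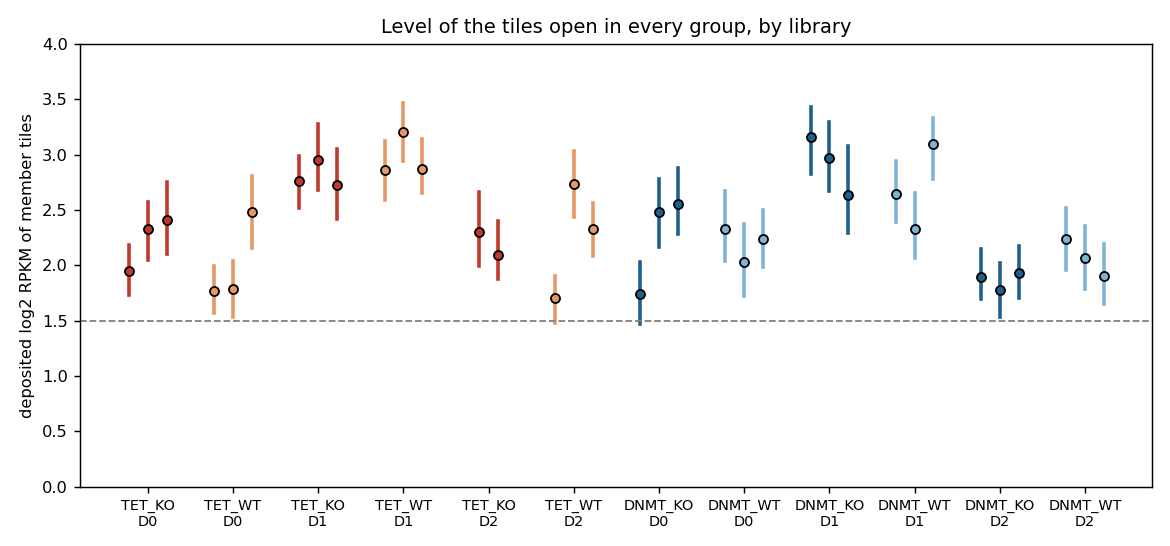
Median (point) and quartiles (line) of the deposited log2 RPKM of the 731 tiles in each library, by line and day, with the threshold of 1.5 dashed. Libraries of D1 lie on a higher scale, and the third library of TET_WT at D0 lies above the other two.

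Stability was measured as the spread of group means. The range over the 12 group means takes in days as well as lines, and as deposited also the higher scale of D1. Its median was 1.33 log2 units as deposited and 0.69 after quantile normalisation, which gives every library the same distribution. In tiles open in some groups it was 1.62 and 1.08, but the rule itself limits the range of the 731 tiles from below, so the difference is no finding. Among the 4 lines on the same day, the range in the 731 tiles had a median of 0.50 at D0, 0.52 at D1 and 0.57 at D2 as deposited. These medians were 0.44, 0.46 and 0.47 after quantile normalisation. After quantile normalisation the median SD among replicates was 0.27 and the median SD among the 4 lines on a day was 0.21. The first is over single libraries and the second over means of 2 or 3 libraries, which vary less by construction, so the pair does not show that lines were more alike than replicates.

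The most even tiles were those of Trib1 (a pseudokinase, range 0.19), Rtn4 (0.20), Csnk1g2 (a casein kinase, 0.28), the transcription kinase Cdk13 (0.29), Birc6 (an inhibitor of apoptosis, 0.29) and Rmnd5a (a ubiquitin ligase subunit, 0.30), all after quantile normalisation. Rtn4 had 2.26, 2.72 and 2.58 in TET_KO at D0, against 1.91, 2.22 and 2.93 in TET_WT, and 2.22, 2.55 and 2.76 in DNMT_KO, against 2.49, 2.23 and 2.56 in DNMT_WT. Its groups overlapped in both families. Among the most uneven were Cul3 (a ubiquitin ligase scaffold, 1.57), Ncl (nucleolin, 1.56), the non-coding Gm41231 (1.54), Macrod2 (1.54) and Mybl1 (1.42). Cul3, Ncl and Mybl1 are on chromosome 1 and Gm41231 is on chromosome 14.

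Chromosomes held unequal shares of the set. Chromosome 8 held 116 of the 731 tiles (15.9%, against 5.25% of all tiles) and chromosome 1 held 104 (14.2%, against 7.94%). Of tiles with a gene start, 4.28% on chromosome 8 and 3.40% on chromosome 1 were in the set, against 0.687 to 1.75% on the other autosomes. Background read density, taken over tiles outside the tested ones and relative to the median autosome, on chromosome 8 had a median of -0.12 log2 units in TET_KO, against 0.39 in TET_WT, and of 0.42 in DNMT_KO, against 0.43 in DNMT_WT. On chromosome 1 it was -0.09 in TET_KO and -0.08 in TET_WT, and 0.39 in DNMT_KO and 0.46 in DNMT_WT. When each library's chromosome background was subtracted first, the rule selected 658 tiles, 605 of them in the set, and chromosome 8 held 74 (11.2%) and chromosome 1 held 68 (10.3%).

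**Figure D4:**
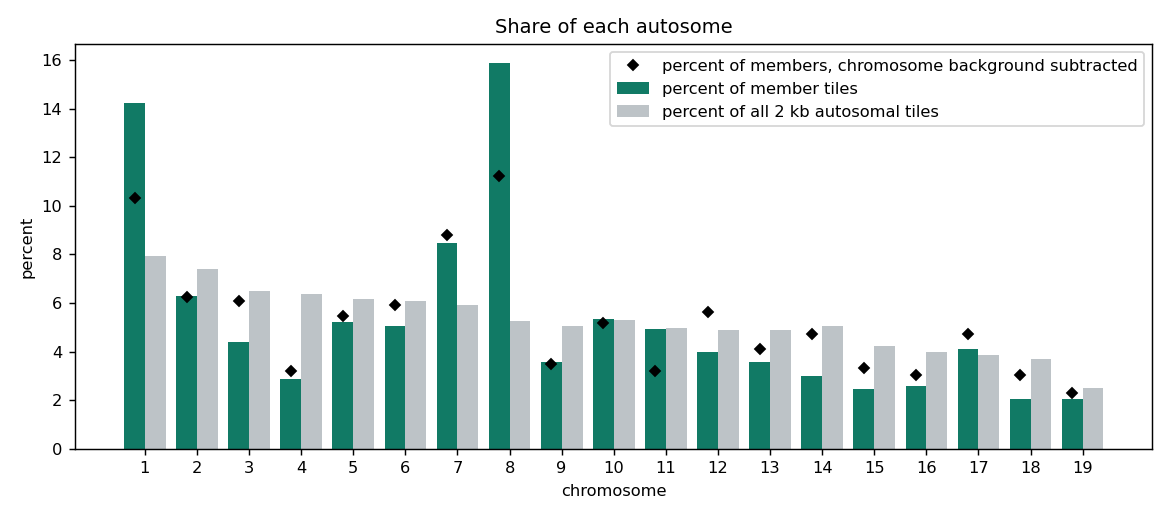
Percent of the 731 tiles and of all full autosomal tiles on each chromosome, with the percent of the tiles selected after the chromosome background was subtracted (diamonds). Chromosomes 8 and 1 stand out at 15.9% and 14.2%, and at 11.2% and 10.3% after subtraction.

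The levels of the tiles followed the same lines. After quantile normalisation, the median of the chromosome 8 tiles minus that of the tiles on other chromosomes was -0.38 to -0.25 over the 8 TET_KO libraries, 0.16 to 0.47 over the 9 TET_WT libraries, 0.10 to 0.37 in DNMT_KO and 0.14 to 0.27 in DNMT_WT. No TET_KO library overlapped any library of the other lines. For chromosome 14 it was -0.25 to 0.01 in TET_KO, against 0.28 to 0.54 in TET_WT, and -0.27 to 0.17 in DNMT_KO, against -0.24 to -0.01 in DNMT_WT. For chromosome 1 it was 0.19 to 0.36 in DNMT_KO and 0.22 to 0.43 in DNMT_WT, against -0.32 to -0.02 in TET_KO and -0.36 to 0.05 in TET_WT. The background tiles of the same libraries separated the same lines.

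**Figure D5:**
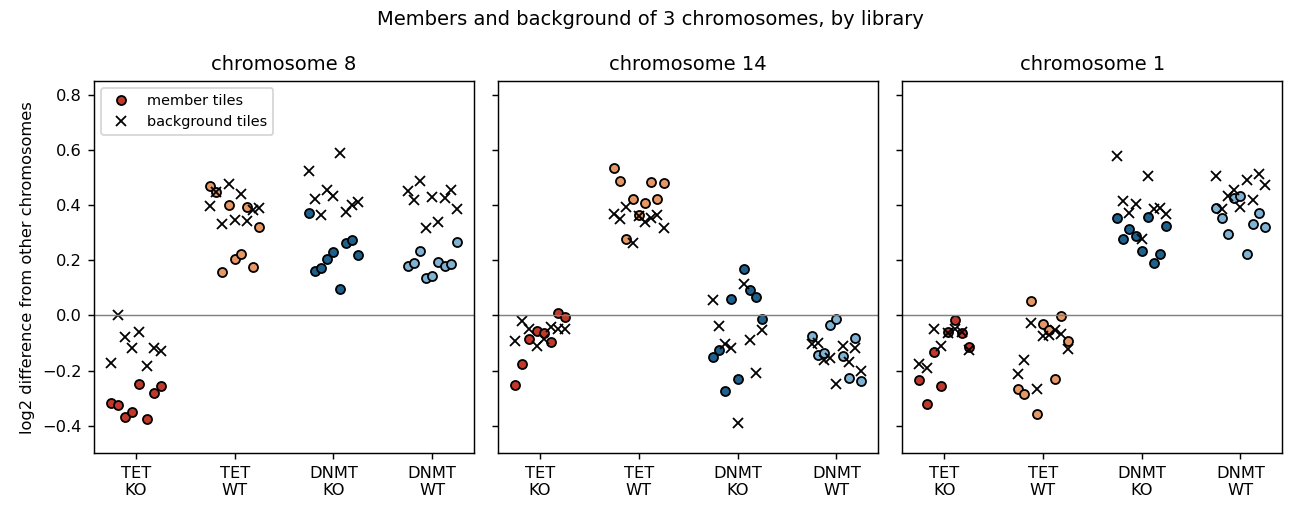
Difference of the median of the tiles on chromosome 8, 14 or 1 from that on the other chromosomes after quantile normalisation (circles), and background read density of the chromosome relative to the median autosome (crosses), both in log2 units, 1 of each per library. TET_KO libraries lie at or below 0 on chromosome 8 and both DNMT lines lie above 0 on chromosome 1, in circles and crosses alike.

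Changes between groups were tested with limma on 131678 tiles, with p-values adjusted by Benjamini and Hochberg over all of them. Since the rule used the levels of all groups, the counts of called tiles are listed beside the share called over all tested tiles and nothing is read from them. In TET_KO against TET_WT at D0, 8 of the 731 tiles were called, 3 higher and 5 lower (0.388% of all tested tiles, 0.196% higher and 0.192% lower). At D1 there were 3, 1 higher and 2 lower (0.103%, of which 0.0456% higher and 0.057% lower), and at D2 there was 1, lower (0.154%, of which 0.041% higher and 0.113% lower). All 8 lower calls were on chromosome 8. The tiles of that chromosome changed by a median of -0.47, -0.48 and -0.47 at D0, D1 and D2, against 0.18, 0.13 and 0.06 on the chromosomes other than 1, 8 and 14. After the chromosome background was subtracted, these medians on chromosome 8 were -0.03, 0.02 and -0.04, and 1, 0 and 0 tiles were called. Without the third TET_WT library at D0, which stood apart, 26 tiles were called at D0, and without the first one 0 were. No share over all tested tiles is given for these refits, so their counts are not read further.

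At D0 the lower calls in TET_KO were Chd9 (a chromatin remodeller), Gab1 (a docking protein), Gm31546, Sap30 (a subunit of the Sin3 complex) and Wwc2. Chd9 had 1.49, 1.96 and 1.36 log2 RPKM in TET_KO, against 2.12, 2.25 and 2.78 in TET_WT, without overlap (limma, -1.02 ± 0.23 SE, adjusted p = 0.0191). At D1 Vegfc had 2.01, 2.99 and 2.45 in TET_KO, against 3.62, 3.80 and 3.98 in TET_WT (-1.26 ± 0.23, adjusted p = 0.00323 by limma). At D2 Rfx1, a winged-helix transcription factor, had 2.08 and 2.17 in TET_KO, against 2.71, 3.49 and 3.33 in TET_WT (-1.05 ± 0.22, adjusted p = 0.0171 by limma). After background subtraction the changes of Vegfc and Rfx1 were -0.75 and -0.72, with adjusted p of 0.473 and 0.434 by limma, so neither call remained.

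The higher calls in TET_KO were off chromosome 8. Khsrp (chr17:57030001-57032000), an RNA-binding splicing regulator, had 2.90, 3.69 and 3.84 in TET_KO at D0, against 2.21, 2.24 and 3.09 in TET_WT (0.77 ± 0.18, adjusted p = 0.0205 by limma), where the deposited values overlapped. The quantile-normalised values that limma used did not overlap, with 3.55, 3.76 and 3.65 in TET_KO, against 2.93, 2.84 and 2.87 in TET_WT. At D1 Khsrp had 3.81, 4.08 and 4.01 in TET_KO, against 3.09, 3.50 and 3.21 in TET_WT (0.87 ± 0.18, adjusted p = 0.0104 by limma), without overlap. After background subtraction these changes were 0.64 and 0.68, with adjusted p of 0.212 and 0.274 by limma, so neither call remained. Both other calls were neighbouring tiles near the imprinted zinc finger gene Peg3 on chromosome 7. In the one with the lower adjusted p (chr7:6728001-6730000) TET_KO had 3.29, 3.72 and 4.01, against 2.09, 2.34 and 3.05 in TET_WT, without overlap (0.93 ± 0.18, adjusted p = 0.00312 by limma), and this call remained after background subtraction (0.82, adjusted p = 0.0483 by limma).

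In DNMT_KO against DNMT_WT none of the 731 tiles was called at D0, D1 or D2 by limma, where 0, 0.00304 and 0.0387% of all tested tiles were called. At an unadjusted p under 0.05 there were 25, 48 and 36 of the tiles, and limma voom on recovered reads also called 0 at each day. No share over all tested tiles at that unadjusted level is given, so nothing is read from the unadjusted counts. The median change of the 731 tiles was -0.03, -0.07 and 0.02, with quartiles of -0.17 to 0.11 at D0, -0.23 to 0.09 at D1 and -0.17 to 0.17 at D2. The widest single changes were -0.81 and 0.68, both at D2.

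At D2 against D0, 0 of the 731 tiles were called in TET_WT by limma (1.54% of all tested tiles, with 28 of the 731 at an unadjusted p under 0.05 and 4 called by limma voom) and 2 in DNMT_WT, 1 higher and 1 lower (2.68%, of which 0.711% higher and 1.97% lower). These were Gm41231, with 2.67, 2.27 and 2.45 at D2, against 1.12, 1.72 and 1.75 at D0 (1.01 ± 0.22, adjusted p = 0.00224 by limma), and the Peg3 tile, with 2.67, 2.10 and 1.91 at D2, against 3.30, 3.08 and 2.91 at D0 (-0.64 ± 0.18, adjusted p = 0.0270 by limma). Neither tile overlapped between the days. The TET_WT counts of 28 and 4 have no share over all tested tiles beside them, so nothing is read from them.

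Between the parental lines at D0, TET_WT against DNMT_WT, 27 tiles were called, 10 higher and 17 lower (1.23% of all tested tiles, 0.472% higher and 0.762% lower). All 17 lower calls were on chromosome 1, whose 104 tiles changed by a median of -0.56, and 3 of the higher calls were on chromosome 14, whose 22 tiles changed by 0.43. Family and processing cannot be told apart in this comparison. Cul3 had 1.35, 1.22 and 2.50 in TET_WT, against 3.05, 2.86 and 2.83 in DNMT_WT, without overlap (-1.15 ± 0.21, adjusted p = 0.00105 by limma), and Actr3, a subunit of the actin-nucleating Arp2/3 complex, changed by -1.13 ± 0.25. Dcaf11 on chromosome 14 had 2.44, 2.50 and 2.90 in TET_WT, against 1.42, 1.88 and 1.69 in DNMT_WT (1.12 ± 0.24, adjusted p = 0.00664 by limma). After background subtraction the chromosome 1 median was 0.04 and 3 tiles were called, none of them among the 17. Without the third TET_WT library 53 tiles were called, and without the first one 4 were. These refits have no share over all tested tiles beside them, so nothing is read from their counts.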

How the data were processed

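The authors deposited log2 RPKM values per 2 kb tile (per the file headers) for 35 ATAC-seq libraries. Trim Galore 0.6.5, cutadapt 2.3, Bowtie2 2.4.1 and GRCm38 are named in the submitters' processing notes. Duplicate removal, Tn5 shifting and handling of multiply matching reads are not given in the sources used here. Values were whole multiples of 1 read (tolerance 0.01 read), with an empty tile at 0.9 read, so reads were recovered. Intervals cover counting error only.

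The 731 tiles and the gene lists were chosen with earlier results of these data known, and some list patterns were corrected after the members were seen. Gene starts came from RefSeq (GRCm38.p6): 27025 genes with strand from the promoter table, and both ends of 12252 genes without. Named tiles were the highest, the most and least even, those nearest the threshold, those farthest from genes, the leading tiles per class and the largest called changes. A few tiles that the rule names are not reported here. Exceptions are Klf2, Klf5, Zic5, Rosa26, Mpc2, Vegfc, Khsrp and the Sox17 tile.

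Changes were tested in tiles of the top 10% by mean on autosomes and X with a read at D0 or D2 (131678 tiles), after quantile normalisation, by limma 3.58.1 (R 4.3.3) with a trend and 12 group means (23 residual degrees of freedom). Tests were 2-sided, a call is an adjusted p under 0.05, and limma was tested on simulated data first. Alternatives were other thresholds, scalings, filters, voom, a replicate block, each library left out and, added after seeing the data, subtraction of chromosome background.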

Additional observations from a re-analysis of the deposited data

Results flagged for a closer look

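Rfx1 at D2 differed between families in its knockout effect. The effect was -1.05 in TET_KO against TET_WT and 0.29 in DNMT_KO against DNMT_WT, and the interaction was -1.33 ± 0.30 (limma, adjusted p = 0.0362 over 131678 tiles, 172 of which, 0.131%, were called at D2). This test was added after seeing the data, and no other of the 731 tiles was called at any day. Rfx1 is on chromosome 8, whose background had a median of -0.12 log2 units in TET_KO, against 0.39 in TET_WT, and the TET effect was -0.72 after that background was subtracted. The interaction itself was not tested after subtraction.

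On the X chromosome, which the rule leaves out, 1 of 85515 full tiles reached 1.5 in all 12 groups, and it held no gene start.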

How the results depend on the processing

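The number of tiles open in every group was 731, and 2898 at a threshold of 1, 123 at 2, 213 with every library at the threshold and 1470 after quantile normalisation, of which 723 were shared. Leaving out 1 library gave 595 to 785. The share with a gene start was 86.2% at a threshold of 2, 94.5% within 1 kb, 85.4% for protein-coding genes and 76.3% for genes with a strand. The range over group means, 1.33 as deposited, was 0.69 after quantile normalisation.

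Counts of called tiles depended on the scaling. Shares over all tested tiles under the alternatives are not given here, so their counts are listed only to show how far they moved. Values as deposited called 0 in every comparison. In TET_KO against TET_WT at D0, D1 and D2 (8, 3 and 1), voom called 5, 0 and 0, no filter 1, 1 and 0, and background subtraction 1, 0 and 0. In TET_WT at D2 against D0, voom called 4 against 0, and in DNMT_WT voom called 0 and no filter 1 against 2. Between the parental lines (27), voom called 53, no filter 4 and background subtraction 3. Leaving out 1 library gave 0 to 26, 1 to 4 and 0 to 4 in the TET knockout, 0 to 0 in the DNMT knockout at each day, 0 to 2 in TET_WT and 1 to 2 in DNMT_WT over days, and 4 to 53 between the parental lines. The highest of the D0 counts came without the third TET_WT library (26 and 53) and the lowest without the first (0 and 4). At D2 the count of 4 came without the second TET_WT library.

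Replicate numbers did not pair the libraries (correlations of same-numbered deviations -0.15 to 0.17). With the replicate block the counts were 11, 3 and 1 in the TET knockout, 0 at each day in the DNMT knockout, 0 and 2 over days and 28 between the parental lines.

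The 32 to 140 reads of the median tile limit precision. The self-test on simulated libraries missed most changes of 1 log2 unit, so no call is no sign that groups were alike.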
